A study of Mus musculus with 4 samples.

Results

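The mitochondrial respiratory chain was followed in mouse testis as 82 genes, chosen by symbol from the deposited gene exon sense features: those that begin with Nduf, with Sdh followed by a to d, with Uqcr, with Atp5, or with Cox followed by a digit from 4 to 8. The table lists 12415 such features, and the symbols, not the measured values, decided membership. By name, 38 of the genes belong to complex I (Nduf), 4 to complex II (Sdh), 7 to complex III (Uqcr), 16 to complex IV (Cox) and 17 to complex V (Atp5). Of the 82 genes, 77 encode subunits. The other 5 include Ndufaf1, an assembly factor of complex I, and Cox7a2l, described as joining complexes into supercomplexes, a role not examined in these mice. The others, Cox4nb, Atp5s and Atp5sl, entered by their prefix and were not counted as subunits. The libraries were made from total testicular RNA of C57Bl/6J mice at postnatal day 60, in 2 Nef-sp -/- and 2 Nef-sp +/- replicates. Nef-sp encodes an RNA exonuclease of the testis, and its null allele is an out-of-frame deletion made with Cas9 nickase and a pair of guide RNAs. Both genotypes therefore carry at least 1 deleted allele, and no wild-type library was compared. It is not stated whether a library came from 1 animal or whether animals were littermates, so that the p-values measure the spread between these libraries only.

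The respiratory chain passes electrons from NADH and succinate to oxygen in the inner mitochondrial membrane. Complex I takes electrons from NADH and complex II from succinate, complex III hands them from ubiquinol to cytochrome c, and complex IV reduces oxygen. Complexes I, III and IV pump protons, and complex V, the ATP synthase, uses the gradient to make ATP. Male germ cells carry testis forms of several chain components next to the somatic ones, and sperm keep their mitochondria in the midpiece of the flagellum. The genes followed here are all nuclear, and the subunits encoded by mitochondrial DNA were not analysed here.

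Read totals over all annotation categories lay between 20659865 and 34442517 per library, and those of gene exon sense features between 15815159 and 26618821. Nef-sp itself, listed as 2610020H08Rik, had normalized counts of 1843 and 1693 in Nef-sp +/- against 407 and 497 in Nef-sp -/- testes, so the labels and the targeted gene went together. To normalize, each count was divided by a factor for its library, the TMM-scaled total over the average of these totals. The tissue label was met by its markers: the 8 genes of round and elongating spermatids made up 2.22% to 2.71% of exon sense reads, and the 7 Leydig cell genes 0.0861% to 0.107%. The epididymal genes listed, Crisp1 and Spink8, stayed at 5.77 normalized counts or less. One library stood apart. The spermatid genes took 2.22% of the reads in Nef-sp +/- replicate 1 and 2.68%, 2.71% and 2.67% in the other 3 libraries, and 8 of 8 lay higher in Nef-sp -/- with a median log2 fold change of 0.16, although none passed the adjusted threshold. The summed share of the respiratory chain genes was highest in the same library. In whole testis, fewer cells of a type and less RNA per cell cannot be told apart, and the part of cell composition in the values below was not tested.

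The respiratory chain genes did not differ detectably between Nef-sp -/- and Nef-sp +/- testes. All 82 passed the expression filter, and 0 of them had an adjusted p below 0.05 in the quasi-likelihood test of edgeR over all 10728 exon sense features tested, in which 0.00932% of the features passed. With DESeq2, 0 of the 82 passed as well, against 0.0186% of all features. Unadjusted p-values below 0.05 were also seen for 0 of the 82 with either tool, while 4.8% of all features had one with edgeR and 1.38% with DESeq2. The smallest unadjusted p among the chain genes was 0.0790, for Ndufa8, and the smallest adjusted p was 0.954.

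The differences were small as well as uncalled. Fold changes are Nef-sp -/- relative to Nef-sp +/-, and on the log2 scale 35 genes were above 0 and 47 below, with a median of −0.012, and the median over all features tested was −0.00022. With library sizes taken over all annotation categories, which moves the median of all features to −0.023, the split was 22 above and 60 below. Its absolute value had a median of 0.043 over the chain genes and 0.071 over all features, and 72 of the 82 genes, or 87.8%, stayed under 0.1, as 63.1% of all features did. These genes are also more deeply counted than most, with a median normalized count of 1270 against 453.8 over all features, and their standard errors are smaller, with a median of 0.0675 against 0.0893. In 12 genes both Nef-sp -/- libraries lay above both Nef-sp +/- libraries, which held for 16.4% of all features, and in 18 both lay below, which held for 18.1%. In the other 52 the genotypes overlapped.

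The intervals show what size of difference the counts leave room for. The 95% interval of the fold change covered no change in 82 of 82 genes. In 76 of them it lay wholly between 0.8-fold and 1.25-fold, and in 81 it excluded a halving or a doubling. The 6 genes with a wider interval were Cox7a1, Cox7c, Ndufab1, Ndufs7, Ndufa4 and Ndufa1. Of these, only Cox7a1 left room for a doubling, and it is the gene with the fewest reads, a mean of 12.5 normalized counts.

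**Figure D1:**
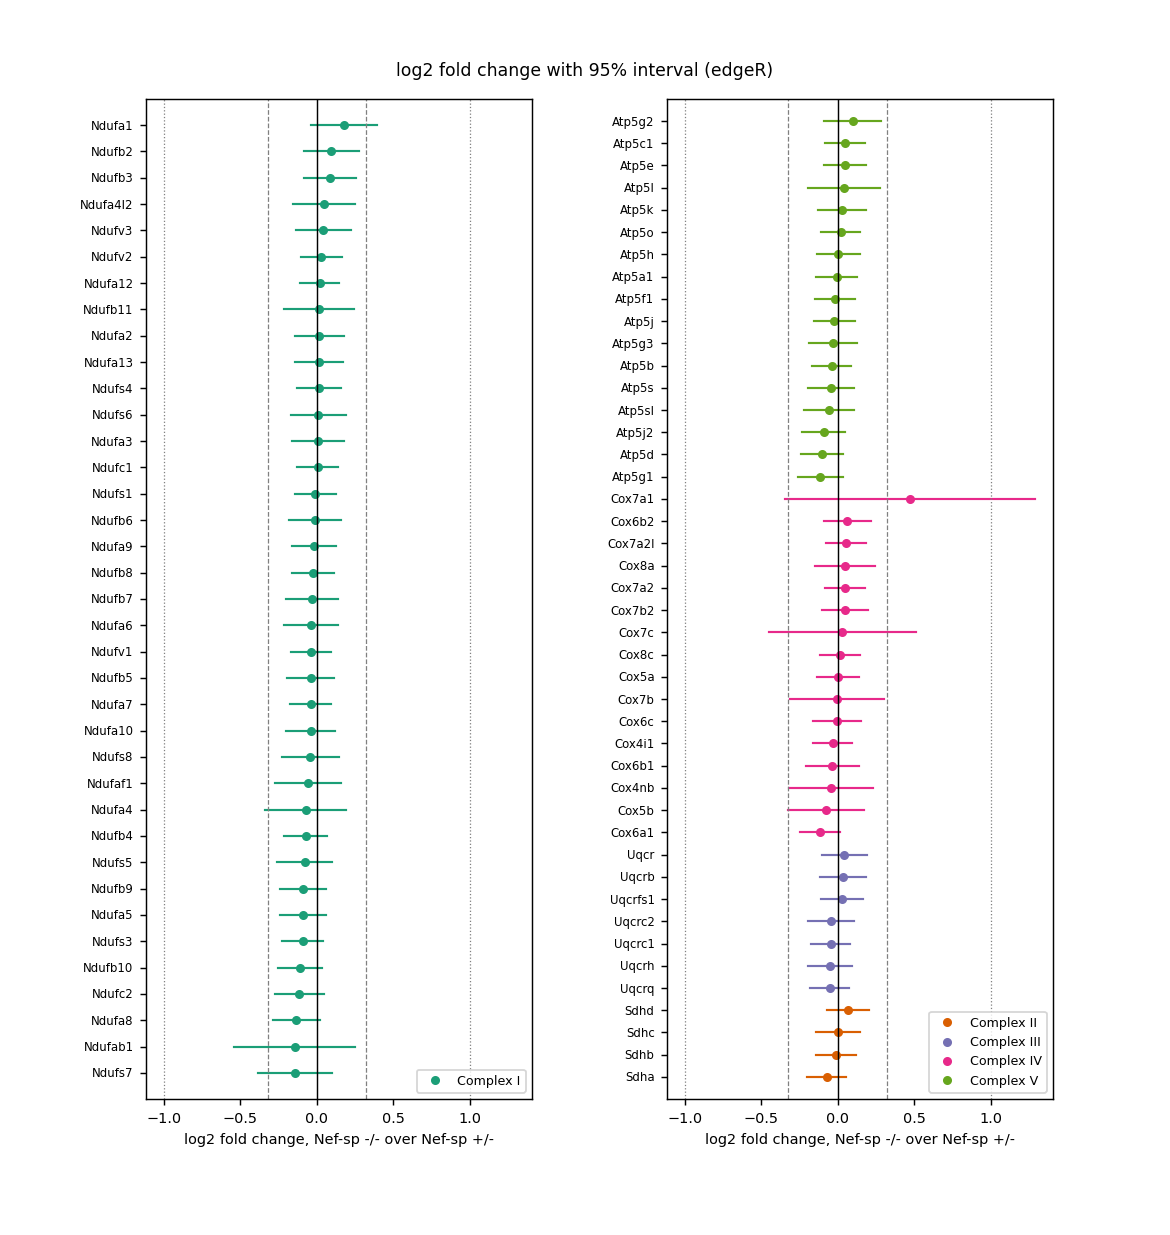
Points are the fold changes on the log2 scale, Nef-sp -/- relative to Nef-sp +/- (x axis), for 81 of the 82 genes, with 2 libraries per genotype, and bars are 95% intervals from edgeR. Dashed lines mark 0.8-fold and 1.25-fold and dotted lines a halving and a doubling. Every bar crosses 0, and 6 reach past the dashed lines.

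Replicates of 1 genotype differed from each other by about as much as, or more than, the genotypes did. The absolute log2 ratio of replicate 2 to replicate 1 had a median of 0.0569 within Nef-sp +/-. Within Nef-sp -/- it was 0.0673, and between the genotype means 0.0426. A ratio of means of 2 libraries varies less than a ratio of single libraries, so these medians are a description. The replicate ratio was below 0 for 55 of the genes in Nef-sp +/- and above 0 for 56 in Nef-sp -/-.

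**Figure D2:**
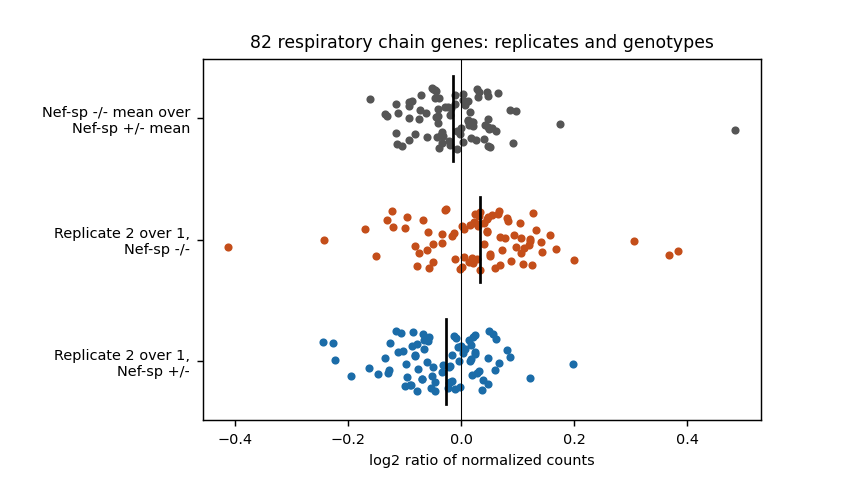
Each point is 1 of the 82 genes, placed by the log2 ratio of its normalized counts (x axis) between the replicates of a genotype or between the genotype means. Black bars are medians. The genotype ratios spread no wider than the replicate ratios except for Cox7a1, at 0.48.

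As a whole, the 82 genes took 0.801% and 0.756% of exon sense reads in the Nef-sp +/- libraries, and those of Nef-sp -/- gave 0.748% and 0.767%. The genotypes overlapped, since Nef-sp -/- replicate 2 lay above Nef-sp +/- replicate 2. The genotype means were 0.779% and 0.758%. With 2 libraries against 2, an exact permutation test, taken on both sides, cannot give a p under 0.33, so none was run.

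The 10 genes with the largest absolute fold change came from 3 complexes, and 8 of them were lower in Nef-sp -/-. Cox7a1, the heart and muscle form of a complex IV subunit, drew 9 and 15 reads from the Nef-sp +/- libraries against 11 and 14 from the Nef-sp -/- ones. On the normalized scale these were 10.4, 10.6, 12.7 and 16.6, a log2 fold change of 0.47 with a standard error of 0.371. Its groups did not overlap, but its interval ran from −0.34 to 1.29 and 1 read more or less moves such counts. Ndufa1, an X-linked accessory subunit of complex I, had 247 and 244 normalized counts in Nef-sp +/- against 266 and 289 in Nef-sp -/-, which is a log2 difference of 0.18 (standard error 0.0979). The Nef-sp -/- libraries were the 2 higher ones here. Ndufs7, which carries the last iron-sulfur cluster before ubiquinone in complex I, had 343 and 289 against 296 and 270, and the groups overlapped. Its log2 fold change of −0.14 became −0.033 without Nef-sp +/- replicate 1, so that this 1 library set its size, and it was −0.28 without Nef-sp +/- replicate 2.

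Ndufa8, a twin-cysteine accessory subunit of complex I, had the smallest p of the family, with 808 and 835 normalized counts in Nef-sp +/- against 732 and 768 in Nef-sp -/-. That is a log2 fold change of −0.13 with a standard error of 0.0688 and an interval from −0.29 to 0.018. Both Nef-sp -/- libraries were below both controls, as in 18.1% of all features. Cox6a1, a complex IV subunit expressed outside muscle, followed with 2373 and 2289 against 2116 and 2190, a log2 fold change of −0.11. Again the groups did not overlap, and the edgeR adjusted p was 0.954, as for Ndufa8. Atp5g1, which encodes subunit c of the ATP synthase rotor, had 910 and 909 against 821 and 861. Atp5d, the delta subunit of the catalytic part, had 1404 and 1393 against 1326 and 1274, and both were without overlap. The remaining genes of this group were Ndufab1, the mitochondrial acyl carrier protein, at a log2 fold change of −0.14, and the accessory complex I subunits Ndufc2 and Ndufb10, both at −0.11. None of these passed the test, and the values are given as the upper end of what was seen.

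**Figure D3:**
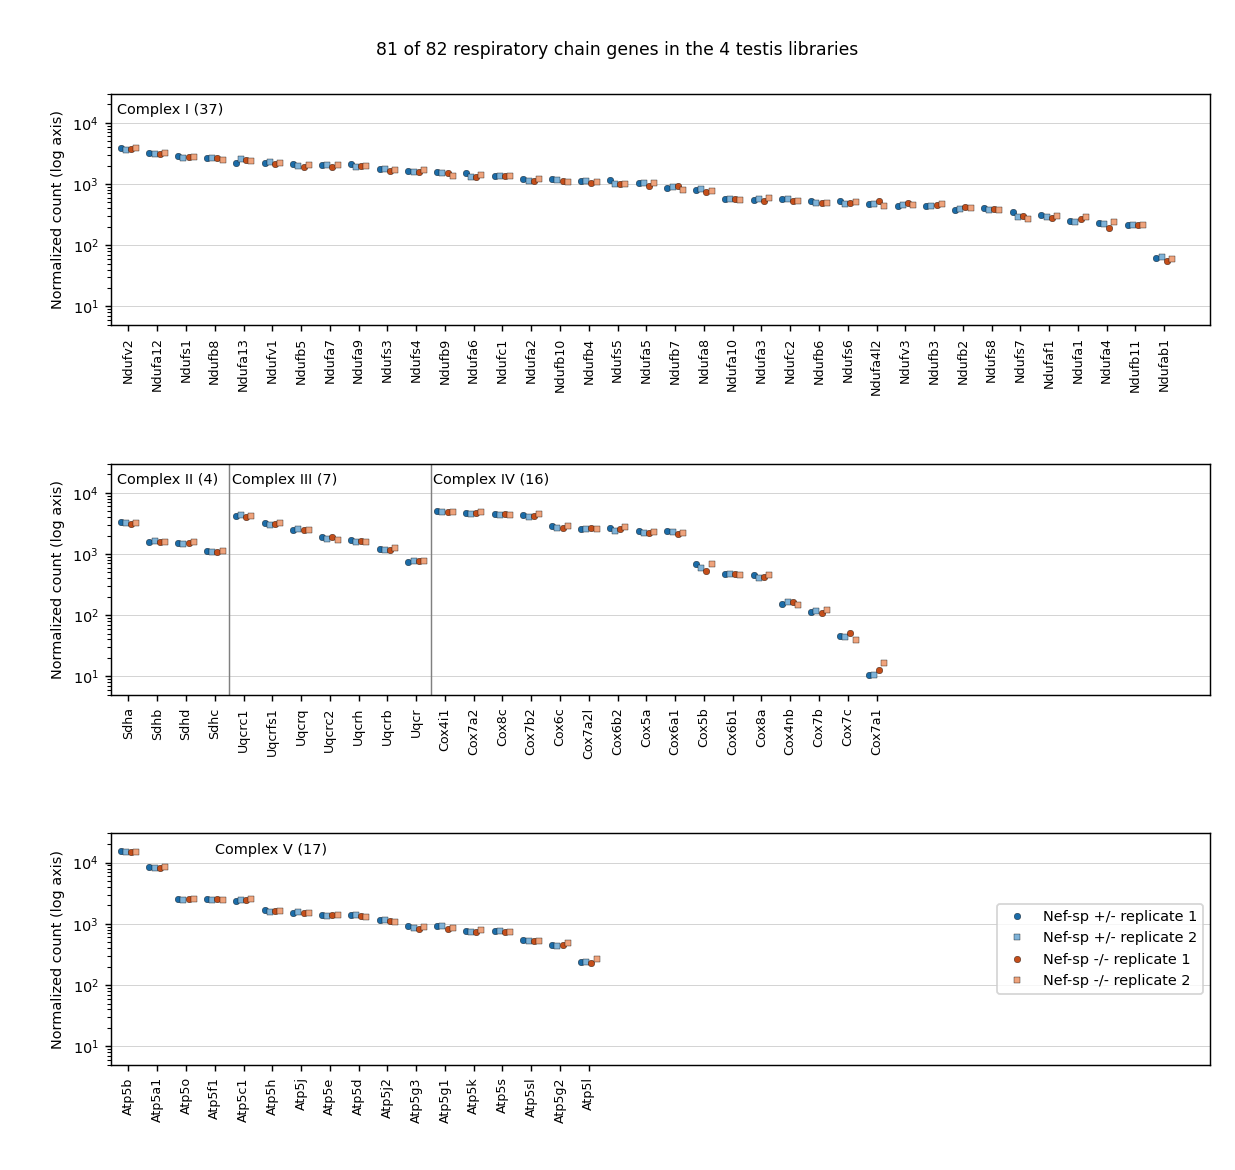
Normalized read counts (y axis, log scale) of 81 of the 82 genes in each of the 4 libraries, ordered within each complex by mean count. The 4 points of a gene lie close together in nearly all cases, from Atp5b at 14767 or more down to Cox7a1 between 10.4 and 16.6.

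Complex I, taken by symbol, was represented by 37 subunit genes and Ndufaf1. Ndufa4 is counted here by its name, although its product is known as a subunit of complex IV, and its relative Ndufa4l2 is also placed by name. The genes had a median log2 fold change over the 38 of −0.028 and a range from −0.14 to 0.18. The core subunits, among them those that bind the cofactors on the way from NADH to ubiquinone, differed in their spread, and Ndufs7, described above, had the lowest fold change of all chain genes. Ndufv1, which binds NADH and the flavin, had 2235 and 2258 normalized counts in Nef-sp +/- against 2153 and 2221 in Nef-sp -/-. Ndufv2, an iron-sulfur partner of Ndufv1, had 3805 and 3636 against 3690 and 3904. Ndufs1, the largest iron-sulfur subunit, had 2836 and 2671 against 2719 and 2749. Of these 3, only Ndufv1 was without overlap between genotypes, at a log2 fold change of −0.039. Ndufs3 had 1754 and 1774 against 1631 and 1677, a log2 fold change of −0.094, with both Nef-sp -/- libraries below. Ndufs8, with 398 and 382 against 387 and 369, overlapped.

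Complex II, the succinate dehydrogenase, had a median log2 fold change of −0.0041 over its 4 subunits. Sdha, the flavoprotein that oxidizes succinate, had 3271 and 3249 normalized counts in Nef-sp +/- against 3051 and 3155 in Nef-sp -/-. Sdhb, its iron-sulfur partner, had 1576 and 1599 against 1557 and 1592. The membrane anchors Sdhc and Sdhd had log2 fold changes of 0.0042 and 0.065. Sdha was below and Sdhd above without overlap, and Sdhb and Sdhc overlapped.

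Complex III had a median log2 fold change of −0.044 over 7 subunits, all between −0.053 and 0.044. Uqcrfs1, the Rieske iron-sulfur protein, had 3154 and 2972 normalized counts in Nef-sp +/- against 3049 and 3194 in Nef-sp -/-. The core proteins Uqcrc1 and Uqcrc2 had 4148 and 4312 against 4055 and 4150, and 1920 and 1782 against 1869 and 1716. All 3 overlapped between genotypes, and the median moved to 0.0089 without Nef-sp +/- replicate 1.

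Complex IV had a median of 0.0065 over its 16 genes, which became −0.018 with library sizes over all categories and −0.015 without Nef-sp +/- replicate 2. Cox5a and Cox5b, small subunits on the matrix side, had log2 fold changes of −0.00035 and −0.073. Cox5b varied most between replicates among the well-counted genes of this complex, with 677 and 591 normalized counts in Nef-sp +/- against 523 and 674 in Nef-sp -/-, and its highest and lowest library lay in different genotypes. Cox4i1, the ubiquitous form of subunit 4, had 5051 and 4816 against 4816 and 4829.

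Complex V had a median of −0.019 over 17 genes. Its catalytic subunits were the most counted genes of the family. Atp5b, the beta subunit, had 15441 and 14953 normalized counts in Nef-sp +/- against 14792 and 14767 in Nef-sp -/-, which is a log2 difference of −0.040. Atp5a1, the alpha subunit, had 8552 and 8102 against 8184 and 8379, and overlapped. Atp5c1, the gamma subunit that turns within them, had 2369 and 2430 against 2434 and 2537, with both Nef-sp -/- libraries above by a log2 fold change of 0.050. Atp5b lay without overlap below and Atp5c1 above, each by less than its standard error.

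Levels of different genes were compared as reads per kilobase of annotated exon per 1000000 exon sense reads, averaged over the 4 libraries. The 82 genes had a median of 47.9 against 7.06 over the tested features with an annotated length. Among subunits, complex IV had the highest median, 115, followed by complex III with 73.0, complex I with 44.4, complex V with 42.5 and complex II with 40.9. These values depend on the length used. With the length of 1 transcript per gene, the one with the longest coding sequence, the medians were 193, 122, 60.4, 109 and 61.2 in the same order of complexes, so that complexes V and II moved above complex I while complex IV stayed first and complex III stayed next. This length was chosen after the data were seen, because the summed exons of some genes hold long rare transcripts. The 2 measures divide the same read counts by 2 lengths and are therefore bound to correlate. Their Spearman correlation was 0.831 across the 82 genes. Neither length allows for reads across exon junctions, which a perfect match to the genome may leave out. Such a loss would differ with exon structure, so levels and ratios between genes carry this limit, and its size was not tested.

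Testis forms of complex IV subunits were among the highest genes. Cox8c, a testis form of subunit 8, was highest with 492.5 ± 16.2 (SD, n = 4 libraries), and Cox7b2, the testis form of subunit 7b, was next by exon length with 419 ± 25.01 (SD, n = 4 libraries). Cox4i1 with 386, Cox7a2 with 331 and Cox6b2, the testis form of subunit 6b, with 250 followed, so that 3 of the 5 highest genes by exon length were testis forms. By transcript length, Atp5b at 420 lay level with Cox7b2, and Cox6b2 stood behind Uqcrq with 330.2 and Cox6c with 297. The highest subunits of the other complexes by exon length were Ndufa6 with 132, Sdhd with 63.5, Uqcrc1 with 135 and Atp5b with 190. The lowest were Ndufab1 with 0.469, Sdhc with 18.2, Uqcrc2 with 39.0, Cox7a1 with 1.85 and Atp5g1 with 9.58. By transcript length Ndufab1 stood at 2.28 and Atp5g1 at 78.9, and the lowest of complex V was then Atp5l with 25.5. Cox4nb, which is no subunit, was the lowest of all by transcript length with 1.69.

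**Figure D4:**
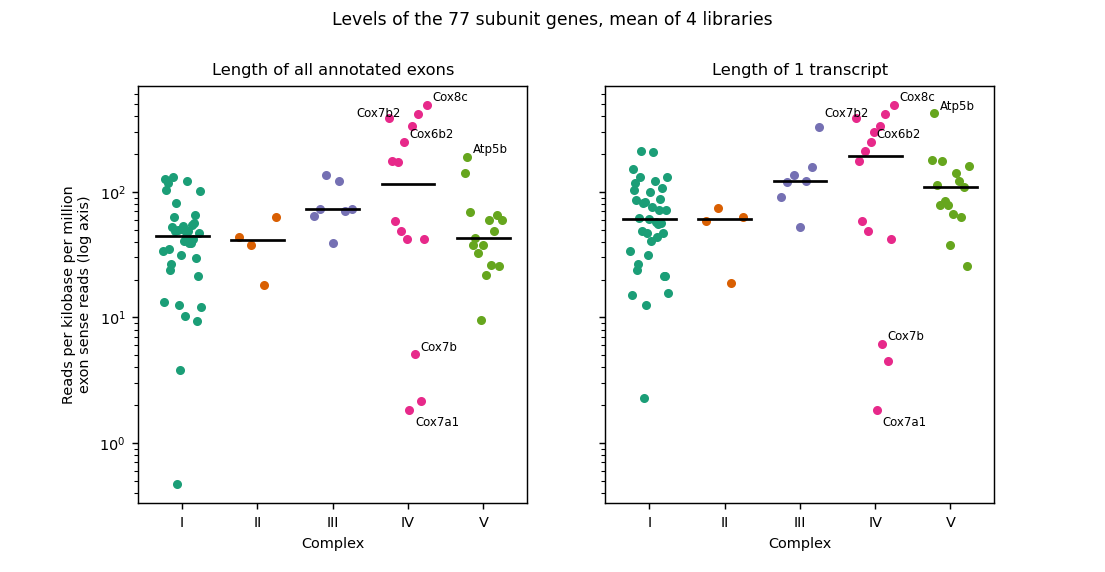
Reads per kilobase per 1000000 exon sense reads (y axis, log scale) of the 77 subunit genes by complex, as means of 4 libraries, with the length of all annotated exons on the left and of 1 transcript on the right. Black bars are medians. Complex IV holds the highest gene by either length, Cox8c, and some of the lowest, Cox7b and Cox7a1, and Atp5b of complex V lies beside Cox7b2 on the right.

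The testis forms outnumbered their somatic partners within every library. Cox7b2 over Cox7b was 86.3 and 75.7 in Nef-sp +/- against 85.3 and 82.005 in Nef-sp -/-, and with transcript lengths between 62.5 and 71.2. Cox8c over Cox8a was 11.3 and 12.2 against 12.3 and 10.8, and Cox6b2 over Cox6b1 was 5.21 and 4.65 against 4.94 and 5.60, both the same by either length. In each of these 3 pairs the genotypes overlapped. The opposite order held for the muscle form, since Cox7a2 over Cox7a1 was 216 and 206 against 175 and 141, where the counts of Cox7a1 limit the precision. Ndufa4l2, a relative of Ndufa4 induced by low oxygen, was close to Ndufa4 in level, with ratios of 1.05, 1.10, 1.42 and 0.968. The fitted log2 fold changes of the testis forms were 0.048 for Cox7b2, 0.013 for Cox8c and 0.063 for Cox6b2, and those of the partners −0.0057 for Cox7b, 0.051 for Cox8a and −0.036 for Cox6b1. Cox6b2, Cox7b2 and Cox8a turned below 0 when Nef-sp +/- replicate 2 was left out. Cox7b2 also did so without Nef-sp -/- replicate 2. Cox4i2, Cox6a2 and Cox8b, the other tissue forms of this complex, were not listed by these symbols among the deposited gene exon sense features. They were therefore not analysed here.

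**Figure D5:**
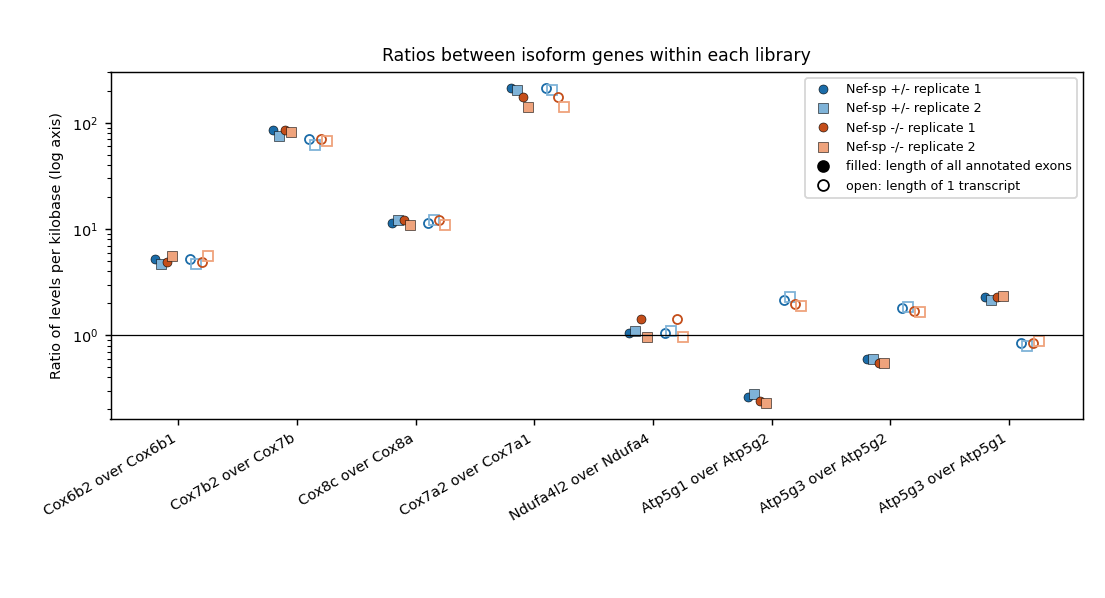
Ratios of levels per kilobase between pairs of related genes (y axis, log scale) in each of the 4 libraries, by the length of all annotated exons (filled) and of 1 transcript (open). The Cox ratios stay far from 1 in all libraries, and the 3 Atp5g ratios cross 1 with the choice of length.

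The 3 genes for subunit c, Atp5g1, Atp5g2 and Atp5g3, encode the same mature protein behind different targeting sequences. Atp5g1 over Atp5g2 was 0.262 and 0.280 in Nef-sp +/- against 0.240 and 0.231 in Nef-sp -/- by exon length, and between 1.90 and 2.31 by transcript length, so that no order between them can be given. Atp5g3 over Atp5g2 was 0.596 and 0.600 against 0.552 and 0.546. Both ratios were lower in both Nef-sp -/- libraries. A change of length scales all libraries alike, so it cannot alter this order. Atp5g2 is the denominator of both ratios, so they are not independent observations. Of the stretches of read length in the coding sequence, 100% in Atp5g2 and 99.7% in Atp5g1 match perfectly elsewhere in the genome. Their counts, and so these ratios, are uncertain for that reason. How often ratios between other genes separate the genotypes in this way was not tested. None of the genes passed the test. Atp5g2 had 458 and 427 normalized counts in Nef-sp +/- against 452 and 492 in Nef-sp -/-, and Atp5g3 had 921 and 865 against 840 and 905.

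Reads of 50 bases were kept only if they matched the genome perfectly, so the sequence between related genes decides what such counts can tell apart. The Cox6b, Cox7b, Cox8, Cox7a and Atp5g pairs share no stretch of 50 bases, and the pair of Ndufa4 genes was not examined. The most similar windows of 60 coding bases without gaps are shown for 3 pairs of complex IV forms, chosen because they remain alike in coding sequence while their levels differ, and for 2 of the subunit c genes, with the bases that differ within a pair in capitals. The Cox8 pair is not shown, since its best window differs at 30 bases. The windows differ at 13 bases for Cox6b2 and Cox6b1, 14 for Cox7b2 and Cox7b, 14 for Cox7a2 and Cox7a1 and 5 for Atp5g1 and Atp5g2. The genes lie at chr7:4703396-4704696 on the minus strand for Cox6b2 and chr7:31401993-31411170 on the minus strand for Cox6b1. Cox7b2 lies at chr5:71834063-71939444 on the minus strand, and Cox7b at chrX:103211039-103217789 on the plus strand. Cox7a2 lies at chr9:79603048-79607660 on the minus strand, and Cox7a1 at chr7:30969190-30971047 on the plus strand. Atp5g1 lies at chr11:95930166-95936984 and Atp5g2 at chr15:102493299-102501478, both on the minus strand, and all positions are in mm9.
Cox6b2: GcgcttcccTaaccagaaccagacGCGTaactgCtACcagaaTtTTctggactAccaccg
Cox6b1: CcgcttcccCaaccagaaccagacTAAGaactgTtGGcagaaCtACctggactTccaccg
Cox7b2: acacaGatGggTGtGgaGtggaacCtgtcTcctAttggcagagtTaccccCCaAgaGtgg
Cox7b: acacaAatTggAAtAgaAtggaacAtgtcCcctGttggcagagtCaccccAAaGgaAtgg
Cox7a2: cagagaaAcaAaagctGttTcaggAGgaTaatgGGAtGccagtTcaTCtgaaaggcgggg
Cox7a1: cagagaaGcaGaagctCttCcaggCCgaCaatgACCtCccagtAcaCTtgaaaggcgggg
Atp5g1: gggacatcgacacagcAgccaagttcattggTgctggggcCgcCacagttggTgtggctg
Atp5g2: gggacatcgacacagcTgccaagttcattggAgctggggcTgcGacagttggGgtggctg

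Other copies in the genome share such stretches. Of the 82 genes, 44, or 53.7%, had at least 1 stretch of 50 bases of their longest transcript that recurs perfectly elsewhere in mm9. Over all exon sense features with a coding transcript it was 32.8%. In 6 genes, or 7.32%, such stretches were over 50% of all stretches, against 3.10% of these features. Genes outside the chain were scanned at every 10 bases and not at every base, which can miss stretches. For the coding sequence alone, only chain genes were scanned. In the coding sequence alone, which was examined after the data were seen, 36 genes had such a stretch, 13 had over 50% of their stretches and 4 had all of them. These 4 were Atp5g2, Atp5l, Cox7c and Ndufb4, the last 3 small subunits of complexes V, IV and I. In Atp5g2, all 598 stretches of the whole spliced transcript match perfectly elsewhere. Stretches across an exon junction, here and in the other genes, can match a copy but not the gene itself. Atp5g2 was still counted at 427 to 492 normalized reads per library, so reads with several matches were not all left out of the table. How such reads were shared between copies is not given in the sources used here, and the counts of these genes are uncertain for that reason. A stretch of each of these 4 genes is shown, with its place in the gene in mm9. The stretch of Atp5g2, at chr15:102495559-102495608, has 3 other perfect matches, and that of Atp5l, at chr9:44721499-44721548, has 9. The stretch of Cox7c, at chr13:86185427-86185476, and that of Ndufb4, at chr16:37649121-37649170, have 3 each. All 4 are on the minus strand.
Atp5g2: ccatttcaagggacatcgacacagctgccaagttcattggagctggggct
Atp5l: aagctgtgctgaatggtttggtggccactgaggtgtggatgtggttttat
Cox7c: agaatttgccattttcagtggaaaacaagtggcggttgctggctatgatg
Ndufb4: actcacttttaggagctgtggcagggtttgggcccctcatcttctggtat

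The genes with many recurring stretches were not uniformly low or high. By transcript length, the 13 genes with over 50% of coding stretches elsewhere had a median level of 78.9 and the other 69 a median of 74.3, and the Spearman correlation of level and share was 0.0585 across the 82 genes. Within the 13, Ndufab1 and Cox7c were among the lowest of all 82 genes, with 2.28 and 4.49, and Atp5g1 stood at 78.9. There are 2 genes with annotated exons that overlap another gene on the same strand, namely Atp5o with Donson over 287 bases and Ndufb2 with Adck2 over 145 bases, and reads there cannot be told apart by strand. Their log2 fold changes were 0.018 and 0.095. The 3 X-linked genes, Ndufa1, Ndufb11 and Cox7b, had levels by exon length of 33.5, 12.6 and 5.09, and the 79 autosomal ones a median of 48.9. Ndufb11, with 213 and 211 normalized counts in Nef-sp +/- against 215 and 213 in Nef-sp -/-, was nearly the same in all 4 libraries.

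Other reads of the same genes were tested in their own annotation categories. Of 41 chain genes listed for intron sense reads, which come largely from unspliced RNA, 24 passed the filter and 0 had an adjusted p below 0.05 with edgeR, against 0.0294% of the 3403 features tested. Of these 24, 1 had an unadjusted edgeR p below 0.05, and the share over all intron sense features is not given here. It was Cox7c, with 44.8 and 40.5 normalized intron counts in Nef-sp +/- against 29.8 and 27.5 in Nef-sp -/-. That is a log2 difference of −0.56 with a standard error of 0.258 and an adjusted p of 0.9996 from edgeR. Its intron counts were lower in both Nef-sp -/- libraries, while its exon counts of 46.0, 43.7, 52.0 and 39.0 overlapped. The median log2 fold change of the 24 genes was 0.027, and their median standard error was 0.322. In sum they gave 1012 to 1067 normalized intron counts per library. The largest intron counts belonged to Cox6b2, with 187 and 157 against 158 and 168, and Uqcrq, with 168 and 178 against 173 and 185.

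Antisense reads over exons were listed for 8 chain genes and tested for 4, and 0 passed, as for 0% of the 1008 features tested. Ndufa13, which has a second role as an inhibitor of STAT3, carried the most, with 1084 and 1501 in Nef-sp +/- against 1509 and 1393 in Nef-sp -/-. On the opposite strand, its exons overlap those of Tssk6, a spermatid protein kinase, over 375 bases. Tssk6 sense reads were 3688 and 5155 against 5032 and 4744, so that both were lowest in Nef-sp +/- replicate 1, the library with the lowest spermatid share. The sense reads of Ndufa13 were also lowest there, with 2221 against 2546, 2444 and 2385. The contribution of reads of the neighbour was not tested. Uqcrc2 followed with antisense counts of 803 and 786 against 919 and 859, and its exons overlap those of Pdzd9 over 183 bases of the opposite strand. In all, 17 of the 82 genes have exons that overlap a gene of the other strand. Over introns, 4 of 8 listed genes were tested for antisense reads and 0 passed, as for 0% of the 1421 features tested. Atp5l, the 1 gene of these with an unadjusted p below 0.05, with 53.6 and 40.2 against 28.8 and 33.9, had a log2 fold change of −0.54 and an edgeR adjusted p of 0.969. Here too the share of unadjusted p-values over all features is not given.

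The start regions of the genes were read for motifs from RefSeq promoters in GRCm38.p6, which run from 250 bases before to 50 bases after a start. Of the 82 genes, 68 matched an entry by symbol or synonym, with 74 promoters in all. The motif of NRF1, a regulator of nuclear genes for mitochondria, was searched as its palindrome of 10 letters and found in 5.41% of these promoters and 0.971% of all 32851 promoters. An ETS motif as bound by NRF2 (GABP), CCGGAAG, was found in 23.0% against 8.86%, and a YY1 motif, AAGATGG, in 17.6% against 6.34%. The GC box GGGCGG was found in 41.9% against 35.7%, the cAMP response element TGACGTCA in 4.05% against 1.79% and the TATA motif TATAAA in 9.46% against 13.6%. Both strands were searched, no motif contains another, and these shares are descriptions of letters in a window. The YY1 letters contain ATG, the letters of a start codon. In most of the genes that hold them they lay after the start, from 22 bases in Ndufa3 and Ndufc1 to 38 in Ndufb8. They began before it in Atp5f1, Cox7c, Atp5j and a second promoter of Atp5sl. Whether they are start codons was not tested. The genes with NRF1 letters were Atp5g2, Atp5k, Cox6a1 and Uqcrc1.

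The promoters of the Cox6b and Cox7b pairs are shown, since both genes of each matched an entry, which Cox8c did not. They are shown with that of Cox6a1, the only complex IV gene with both NRF1 and ETS letters, and capitals mark the motifs searched on either strand. Cox6a1 (chr5:115348909-115349208, minus strand) holds NRF1 letters, ETS letters and 2 GC boxes. Cox6b1 (chr7:30626065-30626364, minus strand) holds ETS letters, and its testis partner Cox6b2 (chr7:4753045-4753344, minus strand) a GC box. Cox7b (chrX:106015450-106015749, plus strand) holds none of the 6 motifs, and Cox7b2 (chr5:71548156-71548455, minus strand) a GC box and TATA letters far from the start.
Cox6a1: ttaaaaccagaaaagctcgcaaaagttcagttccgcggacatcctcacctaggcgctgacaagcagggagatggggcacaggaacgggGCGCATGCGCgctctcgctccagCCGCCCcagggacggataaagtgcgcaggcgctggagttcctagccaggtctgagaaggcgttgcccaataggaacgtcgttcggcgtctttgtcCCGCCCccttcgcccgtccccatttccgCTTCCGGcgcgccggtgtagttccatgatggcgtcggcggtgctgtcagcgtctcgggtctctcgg
Cox6b1: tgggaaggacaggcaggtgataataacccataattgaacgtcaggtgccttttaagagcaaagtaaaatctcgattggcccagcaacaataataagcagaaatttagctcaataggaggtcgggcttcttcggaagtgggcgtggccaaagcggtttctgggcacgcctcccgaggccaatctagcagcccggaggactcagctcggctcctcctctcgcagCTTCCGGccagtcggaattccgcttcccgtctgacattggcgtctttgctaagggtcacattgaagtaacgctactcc
Cox6b2: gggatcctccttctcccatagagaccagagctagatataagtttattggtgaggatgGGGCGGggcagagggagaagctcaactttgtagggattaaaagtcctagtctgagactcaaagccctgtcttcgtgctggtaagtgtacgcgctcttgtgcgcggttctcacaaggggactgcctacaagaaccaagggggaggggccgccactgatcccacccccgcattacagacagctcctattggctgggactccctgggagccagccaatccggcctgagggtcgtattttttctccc
Cox7b: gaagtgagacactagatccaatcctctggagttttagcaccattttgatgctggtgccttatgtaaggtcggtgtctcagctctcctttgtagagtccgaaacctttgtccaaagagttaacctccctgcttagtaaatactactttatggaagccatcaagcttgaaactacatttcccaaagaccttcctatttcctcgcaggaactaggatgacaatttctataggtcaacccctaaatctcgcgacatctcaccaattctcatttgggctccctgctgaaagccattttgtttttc
Cox7b2: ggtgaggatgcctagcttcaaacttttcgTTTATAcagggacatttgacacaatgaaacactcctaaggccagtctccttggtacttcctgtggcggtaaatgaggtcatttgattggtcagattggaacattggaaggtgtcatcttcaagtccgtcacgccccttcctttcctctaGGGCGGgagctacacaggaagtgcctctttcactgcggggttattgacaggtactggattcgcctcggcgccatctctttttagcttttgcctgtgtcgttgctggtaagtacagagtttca

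Genes outside the chain that serve the same organelle were read from lists in the same edgeR fit, and 0 of them passed the test. Of the electron carriers and assembly factors, 46 were tested and 0 passed, with 19 higher and 27 lower in Nef-sp -/- and a median log2 fold change of −0.013. The largest values were −0.69 for Bcs1l, an assembly factor of complex III with 9.47 to 20.7 normalized counts, and 0.30 for Ttc19. Of the citric acid cycle enzymes, 19 were tested and 0 passed, 8 higher and 11 lower, with a median of −0.017 and the largest values at Pdha1 (−0.24) and Idh3a (−0.19). Of the import genes, 22 were tested and 0 passed, 7 higher and 15 lower, with a median of −0.018. Timm17b, a channel component of the inner membrane, had 224 and 225 normalized counts in Nef-sp +/- against 171 and 177 in Nef-sp -/-, which is a log2 difference of −0.37 and an edgeR adjusted p of 0.954. Timm22, the carrier translocase, went the other way at 0.30, and both Timm genes were without overlap. Of the genes for mitochondrial DNA and its regulators, 14 were tested and 0 passed, 7 in each direction, with a median of 0.027 and the largest values at Polrmt (−0.23) and Polg2 (0.21).

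Markers of the cells that share the testis were read in the same fit, and 0 of them passed the adjusted threshold. Germ cell lists before the spermatid stage had medians of −0.071 over 4 spermatogonial genes tested and −0.054 over 7 spermatocyte genes. Somatic lists had medians of −0.073 over 5 Sertoli cell genes, 0.080 over 7 Leydig cell genes, −0.073 over 3 peritubular myoid genes and 0.0048 over 2 macrophage genes. Of the Leydig cell genes, Cyp17a1 and Cyp11a1, which encode enzymes of steroid synthesis, had log2 fold changes of −0.27 and −0.35. Their edgeR adjusted p-values were 0.954 and 0.859. The other 5 Leydig cell genes lay above 0, up to 0.18 for Insl3. The 2 erythrocyte genes, Hba-a2 and Hbb-b1, lay at −0.57 and −0.75, at 10.6 to 332 normalized counts.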

How the data were processed

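Testicular RNA libraries of 2 Nef-sp +/- and 2 Nef-sp -/- replicates were grouped by their titles. The authors deposited raw read counts per feature and annotation category (gene exon or intron, sense or antisense), made from 50-cycle reads that matched mm9 perfectly, and no feature in the table has fewer than 5 reads over the 4 libraries. The table also holds the authors' DESeq2 comparison, namely a mean signal, a log2 fold change and p-values, and these deposited columns were not used. How reads with several matches were counted is not given in the sources used here.

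Counts were tested with the quasi-likelihood test of edgeR 4.0.16 (R 4.3.3), with TMM normalization within each category, a filter at a minimum count of 10 (filterByExpr) and Benjamini-Hochberg adjustment over all features of a category at 0.05. The main fit had no covariate. The fit was tried on simulated counts. Of 50 genes changed by a log2 of 0.3 it called 18, at 0.5 it called 33 of 50, and at 1 it called 48 of 50. Of 10528 unchanged genes, 7 were called. Changes smaller than 0.3, the size seen in nearly all chain genes, were not simulated. DESeq2 1.42.0, other scalings and filters, a replicate block and leaving out each library were the alternatives. Levels were counts per kilobase of exon in GENCODE annotation of mm9 per 1000000 exon sense reads.

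The members and lists were chosen with earlier results of these data known. Named were the 10 largest fold changes, the 5 smallest p-values, the highest and lowest level of each complex, tissue isoforms, core subunits and, of other lists, the 2 largest fold changes. Genes named for recurring stretches, overlaps, other read categories, promoters or X linkage, and Crisp1 and Spink8, were chosen after their values were seen. Values of 1 of the 82 genes are not reported here by name, and it stays in the counts and medians.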

Additional observations from a re-analysis of the deposited data

How the results depend on the processing

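The count of respiratory chain genes called was 0 under every alternative run. The count over all exon sense features was 2 with DESeq2 and ranged from 1 to 252 when 1 library was left out, with 41 without Nef-sp +/- replicate 1 and 252 without Nef-sp +/- replicate 2. It is not stated whether replicate numbers pair the libraries. The deviations of same-numbered libraries from their genotype means correlated at −0.082 over features, a single value that cannot decide this. The fit with a replicate block called 1 feature and 0 chain genes. Unadjusted p-values below 0.05 appeared for 2 chain genes (Ndufs5 and Ndufs7) without Nef-sp +/- replicate 2, when 9.44% of all features had one, and for 1 (Cox5b) without Nef-sp -/- replicate 2, when 3.56% did. Requiring 10 counts in every library removed Cox7a1. Small fold changes had no stable sign, and the cause was not tested.

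With library sizes over all categories, medians were −0.051 for complex I, −0.028 for complex II and −0.043 for complex V, and that of complex IV turned to −0.018. The sign changed for 13 genes, among them Cox8c (−0.011) and Sdhc (−0.020). Requiring 10 counts in every library put the complex IV median at −8.8e-04. Cox5a turned to 0.0027 with DESeq2 size factors and 0.0024 with the DESeq2 test, and Cox7b to 6.7e-04 with the DESeq2 test and 0.0031 with the replicate block. The summed share was 0.614%, 0.584%, 0.579% and 0.587% of all counts of the table, and 0.917%, 0.872%, 0.865% and 0.886% of exon sense counts without the 50 highest features (Nef-sp +/- first). By transcript length, which was chosen after the data were seen, median levels were 60.4, 61.2, 122, 193 and 109 for complexes I to V, and mean ratios crossed 1 for Atp5g1 over Atp5g2 (0.253 to 2.09), Atp5g3 over Atp5g2 (0.573 to 1.75) and Atp5g3 over Atp5g1 (2.27 to 0.842). The count of genes with over 50% of stretches elsewhere became 13 in coding sequence.

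With 1 library left out, where a lone library is assumed to vary like the others, the median ran from −0.029 to 0.014 over all chain genes, −0.052 to −0.0041 for complex I, −0.028 to 0.0089 for complex III and −0.031 to 0.013 for complex V. Signs turned within these ranges for Atp5a1 (−0.046 to 0.032), Atp5g3 (−0.082 to 0.023), Cox4i1 (−0.067 to 0.0026), Cox5a (−0.049 to 0.048), Cox5b (−0.26 to 0.099), Ndufa6 (−0.15 to 0.072), Ndufs1 (−0.053 to 0.034) and Uqcrc2 (−0.11 to 0.019). They also did for Cox6b2 (−0.010 to 0.14), Cox7b (−0.087 to 0.076), Cox7b2 (−0.016 to 0.11), Cox8a (−0.038 to 0.13), Cox8c (−0.028 to 0.058), Ndufv2 (−0.0076 to 0.070), Sdhc (−0.026 to 0.032) and Uqcrfs1 (−0.015 to 0.071). The remaining ones were Ndufa4 (−0.23 to 0.074), Ndufa4l2 (−0.080 to 0.17), Sdhb (−0.025 to 0.0035) and Cox6b1 (−0.074 to 0.0051). This list covers only genes named for fold change, p-value, level, isoform or core role, and other chain genes are not listed. Depth limits Cox7a1 most, whose interval includes a doubling.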
